A study of Mus musculus with 6 samples.

Results

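The proteasome is the protease complex that degrades ubiquitin-tagged proteins, and its subunit genes were examined in cortex of mouse embryos at E13.5 with and without Ybx1, a Y-box RNA-binding protein that reads m5C marks on mRNA. Members were taken by gene symbol, as every gene whose name starts with Psm, a letter from a to g and a number. The rule matched 51 of the 17348 genes listed, and 48 of these encode proteasome subunits, activators, an inhibitor or assembly chaperones. Of the other matches, Psmc3ip and Psme3ip1 are named for binding a proteasome protein and encode no part of the particle, and Psme2b is a near-copy of Psme2.

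The study compared 3 cKO cortices, in which Nestin-Cre, a transgene active in neural progenitors, deletes floxed Ybx1 alleles (Nestin-Cre, Ybx1 fl/fl), with 3 control cortices, each by bulk RNA-seq of mRNA libraries. The labels give the controls the genotype WT, the column names call them Ctrl, and the methods describe controls both as wild-type littermates and as Ybx1 fl/fl mice without Cre. Whether 1 library holds 1 embryo or a pool was not given. Cells outside the Nestin lineage, such as microglia, vessels and blood, keep Ybx1 in this model.

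Each proteasome is built around a barrel-shaped core particle, whose outer alpha rings gate the entry and whose inner beta rings carry the proteolytic sites. A regulatory particle caps the barrel: its base holds ATPases that unfold the substrate, and its lid holds the deubiquitinase that removes the ubiquitin chain. Under interferon signalling, cells replace the constitutive catalytic subunits with immunoproteasome subunits, which favour peptides for antigen presentation. In cycling cells such as cortical progenitors, the proteasome removes the cyclins and inhibitors that the ubiquitin ligases of the cell cycle mark.

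Total counts ran from 15907491 to 16282929 per library, and 13340 genes passed the filter on low counts. Ybx1 itself had 1021, 528 and 1220 CPM, that is, counts scaled to the library total, in the WT libraries and 83.1, 117 and 147 CPM in the cKO libraries. Its log2 fold change was -3.00 (SE 0.33) with an adjusted p of 0.128 in edgeR's quasi-likelihood test, and the groups did not overlap, although the library labelled WT replicate 2 lay lowest in its group. All 12 cortex markers were detected in each library. Other markers also differed: the summed TPM, a level scaled to transcript length and library, of 10 epidermis and meninges genes was 537 in cKO replicate 3 and 4.85 to 7.61 elsewhere, and that of 10 ventral forebrain and interneuron genes was 107 to 159 in WT and 242 to 258 in cKO. Summed TPM ran from 47.6 to 77.5 for microglia genes, from 56.6 to 89.5 for endothelium and pericyte genes and from 4249 to 7689 for erythroid genes, and for each of these lists the genotypes overlapped. The part of these cells in the proteasome values was not tested. In bulk tissue, fewer cells of a type and less RNA per cell cannot be told apart.

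The constitutive subunit Psmb5, which carries the chymotrypsin-like site, and Psmb8, which takes its place in the immunoproteasome, are set side by side with the chaperone Psmd9, the member with the lowest p-value, to show what their start regions hold. The 250 bases before each RefSeq transcription start (GRCm38.p6) lie at chr14:54617996-54618245 on the minus strand for Psmb5, at chr17:34197945-34198194 on the plus strand for Psmb8 and at chr5:123227940-123228189 on the plus strand for Psmd9. Capitals mark matches to TGACNNNGC, the antioxidant response element through which Nfe2l1 and Nfe2l2 act on proteasome genes, and to GAAANNGAA, a core of the interferon-stimulated response element, on either strand.
Psmb5: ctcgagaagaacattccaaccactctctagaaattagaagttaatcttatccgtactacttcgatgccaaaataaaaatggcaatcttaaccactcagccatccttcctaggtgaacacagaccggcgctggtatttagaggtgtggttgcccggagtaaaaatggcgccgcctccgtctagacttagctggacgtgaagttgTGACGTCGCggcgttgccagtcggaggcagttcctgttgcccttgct
Psmb8: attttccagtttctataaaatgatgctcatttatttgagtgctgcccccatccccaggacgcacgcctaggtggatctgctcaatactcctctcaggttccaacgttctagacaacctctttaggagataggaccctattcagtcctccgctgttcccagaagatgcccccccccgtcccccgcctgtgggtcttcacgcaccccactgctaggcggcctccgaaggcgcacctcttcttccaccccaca
Psmd9: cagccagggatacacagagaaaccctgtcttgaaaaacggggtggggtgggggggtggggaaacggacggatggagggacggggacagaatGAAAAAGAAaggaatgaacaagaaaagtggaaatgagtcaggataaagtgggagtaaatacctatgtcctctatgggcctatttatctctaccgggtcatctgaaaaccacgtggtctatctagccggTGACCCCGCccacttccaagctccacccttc
The antioxidant match of Psmb5 starts 47 bases before the start site. Psmd9 holds one 31 bases before it and an interferon-type match 159 bases before it, whereas these letters did not occur in the Psmb8 window. Over windows from 250 bases before to 50 bases after the start, 6 of the 40 proteasome genes with a RefSeq promoter held TGACNNNGC (15%), against 14% of 27025 genes. The interferon-type letters stood in 7 of 40 (17.5%) against 9.76%, and CCAAT in 14 of 40 (35%) against 41.1%. A match is a description of letters, and these shares were not tested.

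Core and regulatory subunit mRNAs were abundant and held narrow limits in every library. Transcripts of the 14 core subunits ranged in mean level from 205 TPM for Psma5, an alpha ring subunit, to 431 TPM for Psmb3, a beta ring subunit, a 2.11-fold span over genes whose proteins enter the particle in equal numbers. The 17 regulatory subunits ranged from 133 TPM for Psmd12, a lid subunit, to 299 TPM for Psmc4, an ATPase, a 2.25-fold span. The median core subunit lay above the median regulatory subunit in each of the 6 libraries, at 307 to 341 TPM against 207 to 220 TPM.

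**Figure D1:**
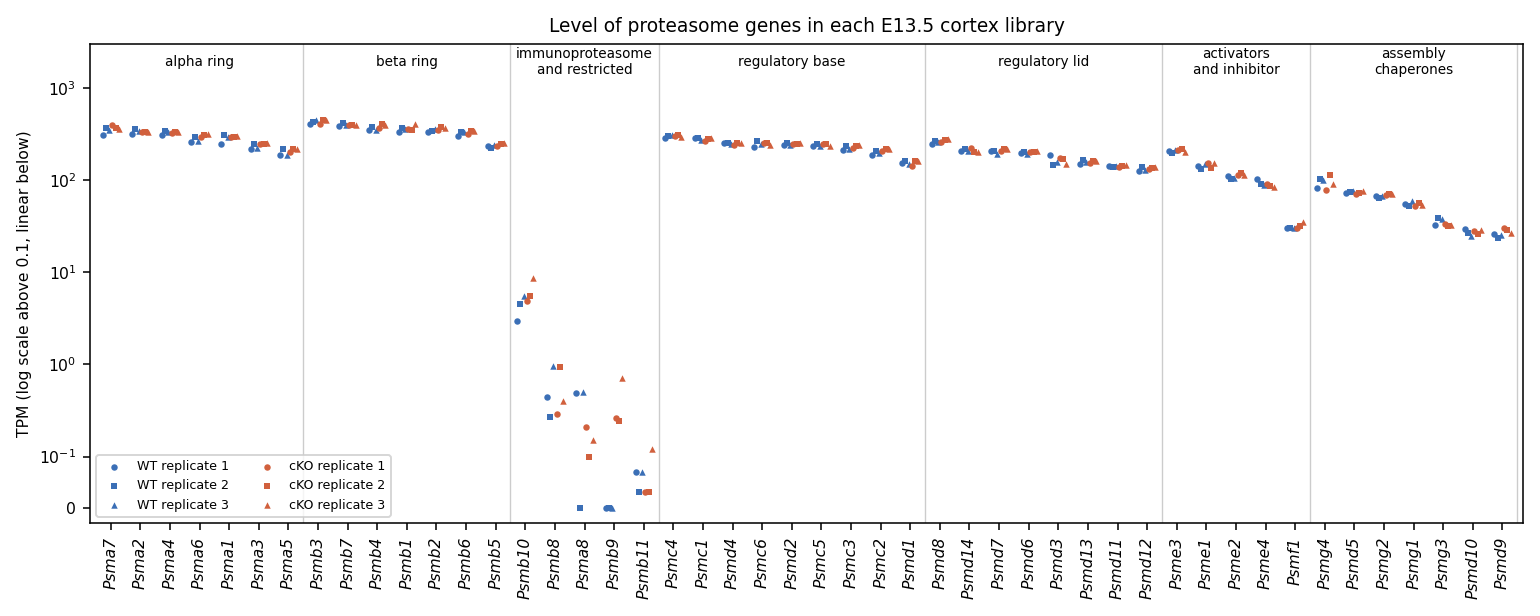
Level in TPM (vertical axis, log scale above 0.1) of the 48 proteasome genes, ordered within each role by mean level, with a point for each of 3 WT (blue) and 3 cKO (orange) libraries. The 14 core and 17 regulatory subunits sit between 126 and 451 TPM in both genotypes, whereas the immunoproteasome catalytic subunits and the tissue-restricted subunits lie at 8.57 TPM or below.

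The assembly chaperones with Psm names stood below the subunits. Their 7 genes lay between 23.7 and 112 TPM over all libraries, so that the highest of these values was under the lowest subunit value of 126 TPM. Pomp, a maturation factor of the core that the symbol rule does not take in, was far higher, at 306 to 373.5 TPM. Psmd9, Psmd10 and Psmg3 were the lowest, with means of 26.7, 27.3 and 34.5 TPM, and Psmg4, one of the core particle chaperones, was the highest, with 94.2 TPM.

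Summed over the 31 core and regulatory subunits, the transcripts made up 7712, 8292 and 7990 TPM in WT and 8103, 8345 and 8387 TPM in cKO. The mean was 7998 ± 290 TPM in WT and 8278 ± 153 TPM in cKO (SD, n = 3 each), and the groups overlapped, since WT replicate 2 exceeded cKO replicate 1. Single subunits varied little: the coefficient of variation over the 6 libraries had a median of 4.32% for the 31 subunits, where the 13340 genes tested had a median of 10.5%, a value that includes many genes with far fewer counts. The least variable was Psmd11 (1.85%) and the most variable Psmd3 (10.1%), both of the lid, which were picked here after their values were seen.

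The question of whether loss of Ybx1 shifted proteasome transcripts was put to a model fitted on all genes. Of the 44 proteasome genes tested, 0 passed an adjusted p of 0.05 in edgeR's quasi-likelihood test, as did 0.0% of all genes tested. At an unadjusted p under 0.05, 0 of 44 were higher and 0 of 44 lower in cKO, where 1.75% of all genes were higher and 1.81% lower. DESeq2 and limma-voom also gave 0 of 44 at either threshold, where 2.55% and 3.34% of all genes had an unadjusted p under 0.05. By CPM, all 3 cKO libraries lay above all 3 WT libraries for 2 of 44 genes, Psmd9 and Psme2, against 4.21% of all genes. They lay below them for 0 of 44, against 4.83%. By TPM, Psma3, Psmd7 and Psmg2 also lay higher in all 3 cKO libraries, with narrow gaps. The highest WT and lowest cKO values were 244.8 and 246.4 TPM for Psma3, 206.6 and 206.8 for Psmd7, and 67.75 and 69.58 for Psmg2. The share of all genes by TPM was not counted. The p-values measure only the spread between these samples.

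The intervals limit how large a difference could have gone unseen. For the 31 core and regulatory subunits, every 95% interval of the log2 fold change lay between -0.24 and 0.36, that is, between 0.849-fold and 1.29-fold of WT. The median standard error over the 44 genes was 0.083, and 43 of the 44 intervals lay within 0.5 of 0 on the log2 scale. The exception was Psmb10, an immunoproteasome subunit with few counts.

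**Figure D2:**
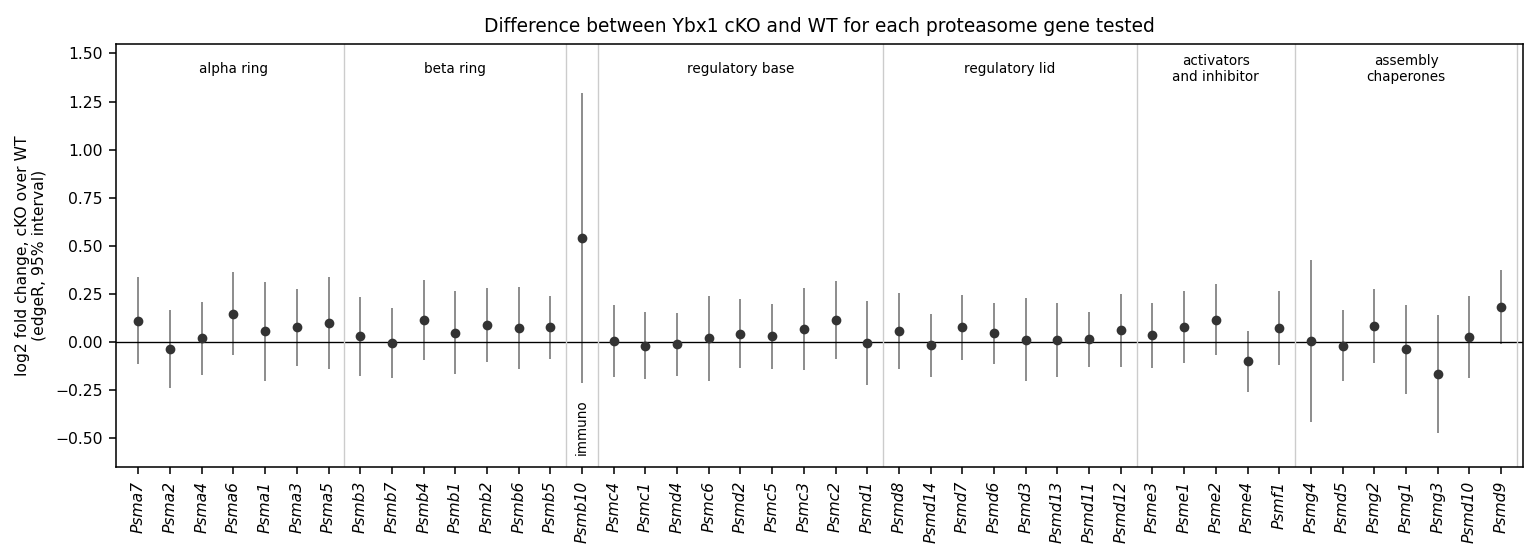
Fitted log2 fold change of cKO over WT (points) with its 95% interval (bars) for the 44 proteasome genes tested, grouped by role. Every interval includes 0, and the widest is that of Psmb10, from -0.21 to 1.3.

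Small positive differences were more frequent than negative ones, without any passing a threshold. The median log2 fold change was 0.07 over the 14 core subunits, of which 12 were above 0. It was 0.02 over the 17 regulatory subunits, of which 13 were above 0. Over all 13340 genes tested the median was 0.0019, and 6774 were above 0. Within the core particle, the 7 alpha ring genes had a median of 0.08, the 4 beta ring genes without a catalytic site 0.07 and the 3 constitutive catalytic genes 0.07. Within the regulatory particle, the medians were 0.02 for the 6 ATPases, -0.0043 for the 3 other base subunits and 0.03 for the 8 lid subunits.

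This lean depended on single libraries. WT replicate 1 was the lowest of the 6 libraries, by CPM, for all 14 core subunits, for 11 of 17 regulatory subunits and for 34 of the 44 proteasome genes (77.3%), where it was lowest for 21.7% of all genes tested. By TPM it was lowest for 13 of 14 core subunits, 8 of 17 regulatory subunits and 22 of the 44, where it was lowest for 12.9% of all genes tested. Without WT replicate 1, the core median was 0.0021, with 7 genes above 0 and 7 below, and the regulatory median was -0.0035, with 7 above and 10 below. Leaving out cKO replicate 2 gave a core median of 0.04 and a regulatory median of -0.02. Without WT replicate 2 the medians were 0.12 and 0.08, and without both WT replicate 2 and cKO replicate 3 they were 0.11 and 0.08.

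The medians of the subunits differed from library to library. As deviation of log2 CPM from each gene's mean, the median of the 31 subunits was -0.15, 0.08 and -0.0068 in WT replicates 1 to 3 and -0.06, 0.09 and 0.05 in the cKO replicates. In both genotypes the library numbered 1 was lowest and that numbered 2 highest. The design text names 3 sequencing batches without saying which library belongs to which, so these values could not be set within batches. The summed TPM of the 12 cortex markers was 4043 in WT replicate 1 and 4053 in cKO replicate 1, against 3070 to 3530 in the other libraries. Their median was 207 and 195 TPM, within the 194 to 232 TPM of the others. By CPM, WT replicate 1 was highest for 3 of the 12 and lowest for 1, and cKO replicate 1 was highest for 3 and lowest for 3. Nes and Neurod2 were named after their values were seen and do not stand for the list. Nes, a progenitor gene, had 447 and 390 CPM in the libraries numbered 1 and 553.5 to 687 CPM in the others. Neurod2, a neuronal gene, had 617 and 631 CPM against 420 to 517 CPM. The part of cell composition in the subunit values was not tested. Psmd3 went the other way: WT replicate 1, with 188 TPM, was its highest library and WT replicate 2, with 144 TPM, its lowest by TPM.

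Short transcripts as a whole varied in the same direction. Proteasome transcripts are short, with a median effective length of 1062 bases for the 31 subunits beside 2785 for tested genes with a length, and 29 of the 31 were among the 3812 genes with the shortest transcripts, at 2027 bases or less. Over those 3812 genes, the median deviations were -0.07, 0.02 and -0.0057 in WT and -0.02, 0.06 and 0.02 in cKO, the same order of libraries and the same signs as for the subunits, and WT replicate 1 was lowest for 36.1% of them. Over the 3812 genes with the longest transcripts the WT replicate 1 median was 0.05. The part of length in the lean was not tested.

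**Figure D3:**
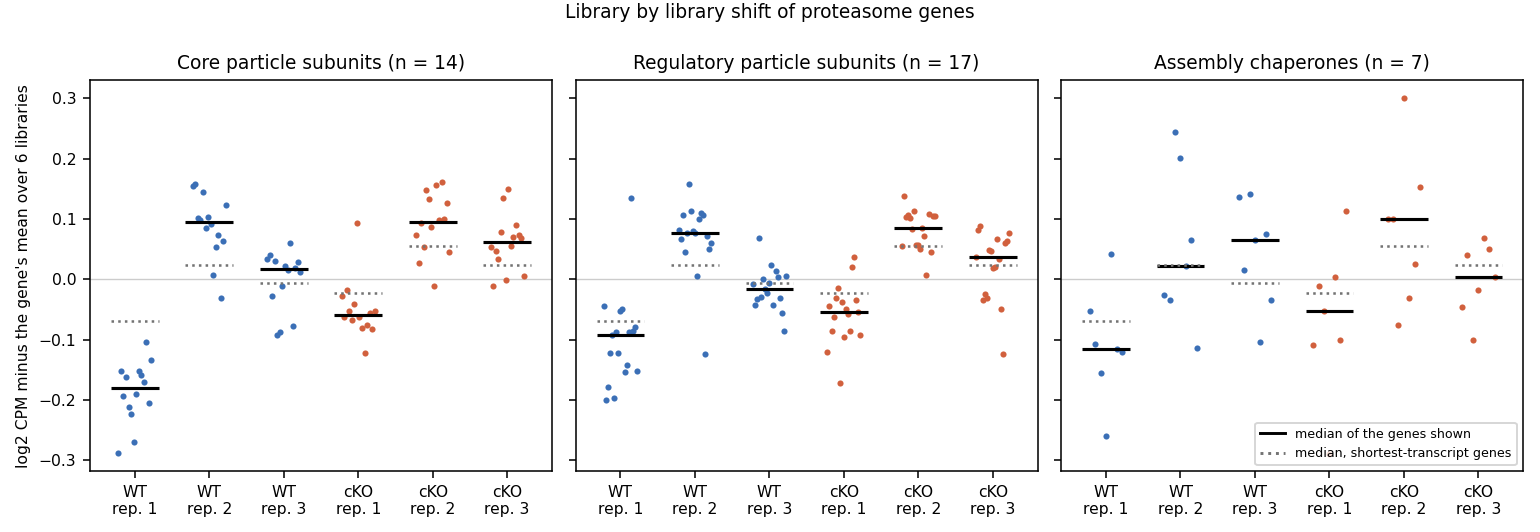
Deviation of log2 CPM from each gene's mean over the 6 libraries (vertical axis) for core subunits, regulatory subunits and assembly chaperones, with points for genes, black bars for their median and dotted bars for the median of the 3812 genes with the shortest transcripts. The core subunits of WT replicate 1 lie lowest, at a median of -0.18, and those of WT replicate 2 and cKO replicate 2 highest, at 0.10 each.

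Psmb5 had 232.6, 224.5 and 238.1 TPM in WT and 236.5, 245.9 and 250.1 TPM in cKO, with a log2 fold change of 0.08 (SE 0.07). Psmb6, with the caspase-like site, had 297.1, 328.1 and 327.8 TPM in WT and 318.3, 343.7 and 341.8 TPM in cKO, with a log2 fold change of 0.07 (SE 0.09). Psmb7, with the trypsin-like site, had 382.7, 414.8 and 394.6 TPM in WT and 391.0, 396.5 and 393.8 TPM in cKO, with a log2 fold change of -0.0049 (SE 0.08). The genotypes overlapped for each of these catalytic subunits, and the values depended on single libraries. Psmb5 ran from 0.05 without cKO replicate 2 to 0.13 without cKO replicate 1. The sign for Psmb6 turned without WT replicate 1, and that for Psmb7 turned under 5 of 16 alternatives, to 0.06 without WT replicate 2 and 0.03 without cKO replicate 1.

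Their immunoproteasome counterparts were close to absent at this depth. Psmb9, the counterpart of Psmb6, had 0, 0 and 0 counts in WT and 1, 1 and 3 counts in cKO, none above the floor of 3 counts, so no fold is given. Psmb8, the counterpart of Psmb5, had 3, 2 and 7 counts in WT and 2, 7 and 3 counts in cKO, spread alike over both genotypes. A count of 0 allowed up to 0.181 to 0.188 CPM, and such floors cover counting error only. Psmb8 and Psmb9 lie near each other on chromosome 17, in the cluster that also holds the peptide transporter genes Tap1 and Tap2.

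Psmb10, the counterpart of Psmb7, was the only immunoproteasome catalytic gene with enough counts to test. It had 21, 36 and 42 counts in WT and 36, 43 and 67 counts in cKO, or 2.94, 4.55 and 5.48 TPM against 4.93, 5.52 and 8.57 TPM. The log2 fold change was 0.54 (SE 0.33), with overlapping groups and an adjusted p of 0.99995 in edgeR's quasi-likelihood test. It fell to 0.26 without cKO replicate 3, the library with the epidermis and meninges transcripts, and to 0.31 without WT replicate 1, and was 0.75 without WT replicate 3. The summed level of the 11 antigen presentation genes was also highest in cKO replicate 3, at 126 TPM against 96.9 to 109 TPM in the other libraries, and much of that gap lay in B2m, with 62.4 TPM there against 40.2 to 47.6 TPM.

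In share of transcripts, the immunoproteasome gene made up 0.762% to 2.13% of its pair for Psmb10 and Psmb7, 0.12% to 0.402% for Psmb8 and Psmb5, and at most 0.21% for Psmb9 and Psmb6. The Psmb10 pair had the highest share in every library. The Psmb9 share exceeded the Psmb8 share only in cKO replicate 3, where both genes had 3 counts, at the floor, so their order there is not interpreted. Psma8, the testis-type alpha subunit, and Psmb11, the thymus-type beta subunit, reached at most 0.50 and 0.12 TPM. These 4 genes below the filter, Psmb8, Psmb9, Psma8 and Psmb11, were not in the model.

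**Figure D4:**
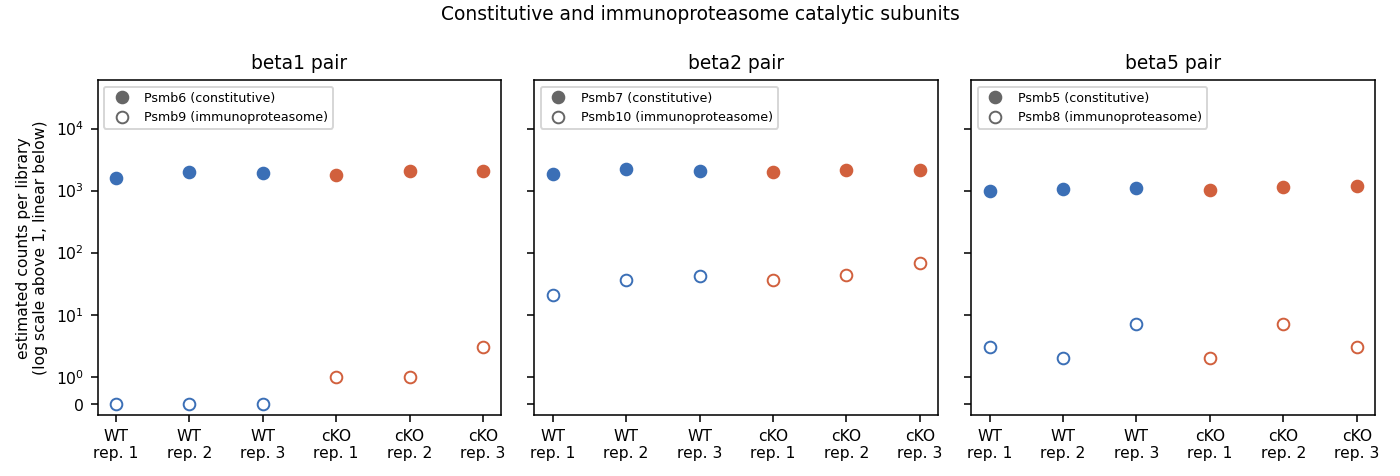
Estimated counts per library (vertical axis, log scale above 1) of each constitutive catalytic subunit (filled) and its immunoproteasome counterpart (open) in 3 WT (blue) and 3 cKO (orange) libraries. The constitutive genes have 995 to 2268 counts, whereas Psmb10 has 21 to 67, Psmb8 has 2 to 7 and Psmb9 has 0 to 3.

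The interferon-inducible activator, which opens the core particle without ATP, was expressed far above those catalytic subunits. Psme1 had 140.9, 131.1 and 148.9 TPM in WT and 154.9, 134.8 and 154.7 TPM in cKO, with a log2 fold change of 0.08 (SE 0.08) that ran from 0.04 without cKO replicate 3 to 0.13 without WT replicate 3. Its partner Psme2 had 111.6, 102.8 and 106.2 TPM in WT and 112.3, 118.3 and 113.6 TPM in cKO. The groups of Psme2 did not overlap, but the gap between WT replicate 1 and cKO replicate 1 was under 1 TPM, and the log2 fold change of 0.12 (SE 0.08) had an adjusted p of 0.99995 in edgeR's quasi-likelihood test. It was 0.07 without cKO replicate 2.

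Some reads of Psme2 could not be told from those of its near-copy. Psme2b held 2, 7 and 0 counts in WT and 0, 0 and 0 in cKO, and both genes had counts that were not whole, which arise where reads are divided between similar transcripts. Among the 48 proteasome genes, Psme4, Psmf1 and Psmb11 also had counts that were not whole, and none of the 31 core and regulatory subunits did. How large the shared portion of reads was cannot be read from the rounded counts.

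The other activators and the inhibitor differed in level, and each interval of the difference included 0. Psme3, a nuclear activator, had 207.2, 194.6 and 210.6 TPM in WT and 213.9, 215.7 and 199.3 TPM in cKO, with a log2 fold change of 0.03 (SE 0.07). Psme4, a large nuclear activator, had 102.1, 89.9 and 87.6 TPM in WT and 91.6, 86.1 and 84.0 TPM in cKO, with a log2 fold change of -0.10 (SE 0.07). Psmf1, which encodes an inhibitor of the core particle, had 30.4, 29.8 and 30.0 TPM in WT and 30.0, 31.4 and 34.7 TPM in cKO, with a log2 fold change of 0.07 (SE 0.08). In each case the genotypes overlapped. Without cKO replicate 2 the sign for Psme3 turned, to -0.02, and Psme4 was -0.06 without WT replicate 1. Psmf1 was 0.02 without cKO replicate 3 and 0.14 without cKO replicate 1.

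Psmd9, a chaperone of the regulatory base at chr5:123228190-123250126, had the lowest p-value of the 44 genes. It had 25.8, 23.7 and 25.6 TPM in WT and 29.9, 28.7 and 26.8 TPM in cKO, so that each cKO library was above each WT library. The log2 fold change was 0.18 (SE 0.08, 95% interval -0.01 to 0.37), with an unadjusted p of 0.0617 and an adjusted p of 0.99995 in edgeR's quasi-likelihood test. It ranged from 0.15 to 0.22 over the fits that left out 1 library each. Its 2 fellow base chaperones had log2 fold changes of -0.02 for Psmd5 and 0.03 for Psmd10, and the 4 core particle chaperones ran from -0.16 for Psmg3 to 0.09 for Psmg2.

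Among the subunits themselves, Psma6 and Psmc2 had the lowest p-values of the core and of the regulatory particle. Psma6, of the alpha ring, had 260.1, 295.7 and 268.3 TPM in WT and 290.8, 305.9 and 317.4 TPM in cKO, with a log2 fold change of 0.15 (SE 0.09). It was 0.08 without WT replicate 1 and 0.23 without WT replicate 2. Psmc2, an ATPase, had 186.4, 205.9 and 194.6 TPM in WT and 204.3, 216.7 and 216.2 TPM in cKO, with a log2 fold change of 0.11 (SE 0.09), which was 0.05 without WT replicate 1, 0.07 without cKO replicate 2 and 0.18 without WT replicate 2. For both genes WT replicate 2 lay within the range of the cKO libraries, so the groups overlapped.

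The subunits at the ends of the level range were picked by level and not by p-value. Psmb3 had 405.5, 431.1 and 444.3 TPM in WT and 408.3, 444.4 and 451.2 TPM in cKO, with a log2 fold change of 0.03 (SE 0.09). Psma5 had 185.2, 217.4 and 188.7 TPM in WT and 201.8, 218.4 and 215.7 TPM in cKO, with a log2 fold change of 0.10 (SE 0.10). Psmc4 had 288.9, 297.1 and 308.6 TPM in WT and 296.6, 310.7 and 292.4 TPM in cKO, with a log2 fold change of 0.0053 (SE 0.08). Psmd12 had 125.6, 137.2 and 127.0 TPM in WT and 132.4, 136.1 and 139.5 TPM in cKO, with a log2 fold change of 0.06 (SE 0.08). All 4 overlapped between genotypes, and the signs for Psmb3 and Psmc4 turned when WT replicate 1 or cKO replicate 2 was left out. Leaving out WT replicate 1 gave 0.03 for Psma5 and 0.0061 for Psmd12, whereas leaving out WT replicate 2 gave 0.21 and 0.13.

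The genes around the proteasome were read from lists by role. Of 9 proteasome genes named outside the rule, such as Adrm1 and Sem1 of the regulatory particle and Pomp, which matures the core, 0 passed an unadjusted p of 0.05. The same was true of 8 genes of proteasome transcriptional control, among them Nfe2l1 and Nfe2l2, of 15 genes for ubiquitin, its activating enzymes and shuttle factors, and of the 9 antigen presentation genes that passed the filter. With 1.75% of all genes higher and 1.81% lower at that threshold, lists of this size could hold 0 without differing from the background. By the groups alone, Ube3c, a ligase that acts on the proteasome, and Ddi2, the protease that activates Nfe2l1, lay lower in all 3 cKO libraries by CPM, with log2 fold changes of -0.09 (SE 0.06) and -0.15 (SE 0.09), where 4.83% of all genes did so. Each was the only such gene of its list, of 9 and of 8 genes, and the lists of 15 and of 9 held 0. By TPM the genotypes overlapped for both Ube3c and Ddi2. Of 26 genes of cell cycle ubiquitin ligases, 1 was lower in cKO at an unadjusted p under 0.05 and 0 were higher.

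That gene was Anapc5, a subunit of the anaphase-promoting complex, which marks mitotic cyclins for the proteasome. It had 325.8, 328.8 and 337.6 TPM in WT and 276.6, 286.8 and 292.9 TPM in cKO, without overlap. The log2 fold change was -0.22 (SE 0.08), with an unadjusted p of 0.0253 and an adjusted p of 0.99995 in edgeR's quasi-likelihood test. One gene of 26 stands beside a background of 1.81% for lower genes.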

How the data were processed

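Bulk RNA-seq of E13.5 cortex was analysed in 6 libraries, 3 WT and 3 cKO, grouped by their labels. The authors deposited 1 table with estimated counts, TPM and FPKM for each gene and library. The submitters' processing notes name HISAT2 2.2.1, Bowtie2 2.4.5, RSEM 1.3.1 and GRCm38 (mm10), and the annotation and strand setting are not given in the sources used here. The deposited estimated counts (10.95% not whole) were rounded. The deposited TPM gave levels between genes, and the deposited FPKM, set against the counts, gave an effective transcript length where FPKM was at least 1 in every library. Another 6 columns, group averages, were not used.

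Genes passing filterByExpr (minimum count 10, minimum total 15) were fitted with edgeR 4.0.16 in R 4.3.3 by quasi-likelihood, with TMM factors, genotype as the only term and Benjamini-Hochberg adjustment over 13340 genes. CPM used TMM-scaled totals. DESeq2 1.42.0, limma 3.58.1 (voom, and log2(TPM + 1)), other scalings, filters, a replicate block and leaving out libraries were alternatives. The fit was also run on simulated counts drawn for each gene on its own, and the outcome is not reported here. Those counts held no shift shared by many genes of a library, so the run did not cover such shifts. Precision of single genes was set by 3 libraries per genotype.

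The members and lists were chosen with earlier results of these data known. Named with all values were the catalytic pairs, activators and inhibitor, the 6 lowest p-values and the level extremes of each particle. So were proteasome genes whose groups did not overlap by CPM, and list genes with unadjusted p under 0.05. Promoters and positions came from RefSeq (GRCm38.p6), and the 51 members all had a position. RefSeq spans of 12 of the 48 proteasome genes overlap another gene.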

Additional observations from a re-analysis of the deposited data

How the results depend on the processing

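The count of proteasome genes at an adjusted p under 0.05 was 0 under all 16 alternatives. At an unadjusted p under 0.05 it was 0 of 44 as reported. It became 1 of 44 with upper-quartile factors or library totals alone (Psmd9 in both), where 3.47% and 3.67% of all genes passed. With no filter on low counts it was 1 of 48 (Psmb9, at 0 to 3 counts), where 3.75% of all genes passed. Leaving out 1 library gave 0 to 1, the 1 being Psma6 without WT replicate 2, where 3.04% of all genes passed. The labels do not state that replicate numbers pair the libraries, so the main fit had genotype as its only term. Same-numbered deviations correlated at 0.406, 0.310 and -0.02. The deviations of a genotype sum to 0 for each gene, so these values depend on each other and cannot decide the pairing. With the replicate block the count was 2 of 44 (Psma6 and Psmb10), where 8.17% of all genes passed against 3.57% without the block, and the Ybx1 log2 fold change was -2.95 (adjusted p 0.0381). Each WT library correlated best with its own number for numbers 1 and 2 but not for 3. Ybx1 passed the adjusted threshold with DESeq2 (-3.00, 5.46e-10) and without both WT replicate 2 and cKO replicate 3 (-3.49, 0.0188), and ranged from -3.28 to -2.75 with 1 library left out, with adjusted p from 0.0206 (without WT replicate 2) to 0.953 (without cKO replicate 2). Of 256 values for 16 named genes, 11 changed sign. Psmb7 became 0.0084 with upper-quartile factors, 0.019 with library totals alone and 0.055 without WT replicate 2 and cKO replicate 3. With 1 library left out, Psmb7 ranged from -0.065 to 0.058, Psmb6 from -0.0023 to 0.14, Psmb3 from -0.034 to 0.10, Psmc4 from -0.049 to 0.046 and Psme3 from -0.015 to 0.069. Library totals alone shifted the median of all genes to 0.03 and put all 17 regulatory subunits above 0. The medians of core, regulatory and immunoproteasome genes moved by less than the spread between replicates (SD 0.116, 0.078 and 0.090). Leaving out 1 of 3 libraries moves a group mean by only part of that library's deviation, so this comparison cannot show stability. The regulatory median was negative in 2 of the 16 alternatives. The causes of these shifts were not tested.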
